A study of Mus musculus with 28 samples.

Results

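The features described here are 34 of the 28661 rows counted in 28 RNA-seq libraries of mouse (C57BL/6) cortex and hippocampus. They were chosen by their own values in cultured neurons. Each level was taken as log2(CPM + 10), where CPM is a feature's count scaled to the reads of its library that were assigned to features (counts per M, mega) and the added 10 CPM damps differences between low counts. A feature was a member when its mean in neurons captured by TIVA exceeded its mean in neurons drawn up by pipette by 1.5 or more, in cultured cortex and also in cultured hippocampus. In cortex 1.16% of all features met that limit, in hippocampus 0.391% and in both regions 0.147%, or 42 features. A run of 8 rows with identifier stems from uc009vev to uc009vfc met it in both regions and was left out, which leaves 34 members or 0.119% of all features.

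TIVA (transcriptome in vivo analysis) uses a caged poly(U) tag that enters cells and is opened by a laser in a chosen cell, so that it pairs with the poly(A) tails of messenger RNA and can be pulled out with them. A pipette instead takes up the cell body with whatever RNA is in it. Bulk tissue holds the RNA of neurons, glia and vessels together, and fewer cells of a type and less RNA per cell cannot be told apart in it.

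The members were read in 8 groups. Cultured neurons had spent 7 to 9 days on coverslips, and gave 4 cortical and 3 hippocampal libraries by pipette, with no treatment, and 4 cortical and 4 hippocampal libraries by TIVA, with 10 µM tag for 15 min and a laser at 30% power. Acute slices came from mice of 8 to 10 days, for bulk as for neurons. They gave 5 hippocampal and 2 cortical neurons by TIVA, with 30 µM tag for 90 min and a laser at 80% power, 3 hippocampal neurons by pipette and 3 libraries of untreated bulk hippocampus. Every library, bulk included, went through 3 rounds of linear amplification. In both TIVA protocols the field around the opened cell was drawn up together with it. The tissue neurons with a pipette source name carry protocol text on TIVA capture, and the text of the cortical tissue neurons names the CA1 field of the hippocampus. The source name was followed in both cases.

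The files do not pair their UCSC known-gene identifiers with gene symbols, and 0 of 55419 identifiers were found in the tables given with the data. The members therefore carry no gene names, functions, positions or sequences here, and the neuronal label of the libraries could not be checked against marker genes. Identifiers are printed for 4 members, and all members are otherwise numbered 1 to 34 by the smaller of their cultured differences. Because CPM is not divided by feature length, levels are compared between libraries and not between features. Since neurons are single cells and no animal, culture or batch is named for them, each group counts as 1 sample, and batch and group cannot be told apart. No test between groups was run, no p-value is given, and differences stand beside the spread over libraries.

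The members spread widely above the limit that chose them. Their TIVA minus pipette differences ran from 1.54 to 6.82 in cultured cortex and from 1.60 to 7.49 in cultured hippocampus. By the smaller of both differences, the last 3 members inside the limit stood at 1.60, 1.58 and 1.54, and the first 3 features outside it at 1.47, 1.47 and 1.45. The members joined several isoform identifiers in 15 of 34 cases (44.1%), against 41.8% of all features and 69.7% of the 5011 features with means of at least 20 CPM in both cultured TIVA groups, and the longest name held 13 identifiers. Members 1, 3 and 12 have consecutive identifier stems. The handling of strand and overlaps in counting is not given in the sources used here. Reads shared between neighbouring or overlapping features could not be told apart.

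**Figure D1:**
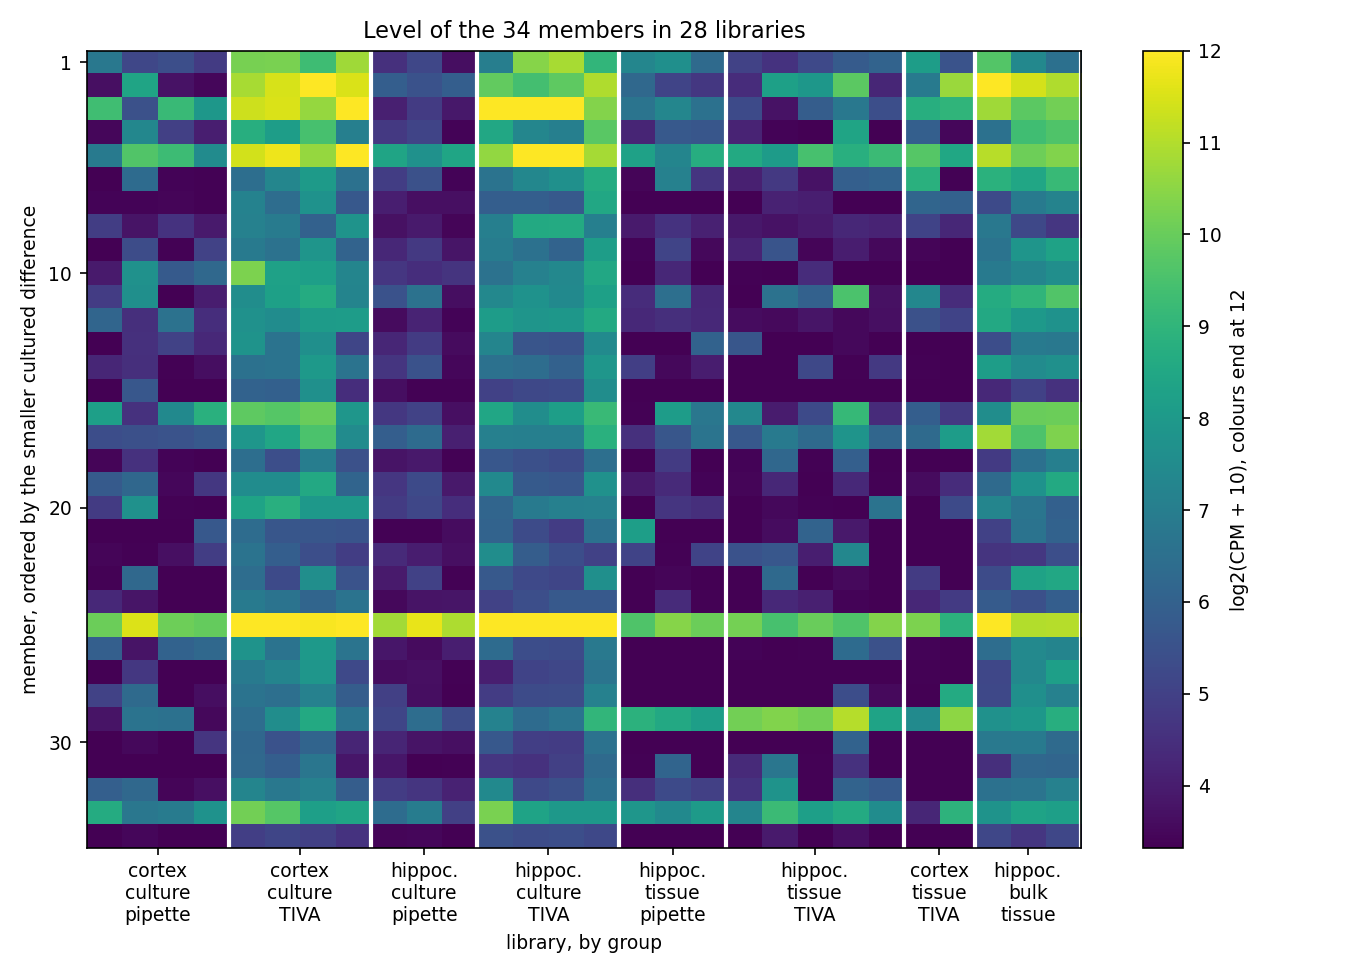
Level of each of the 34 members (rows, numbered from the largest to the smallest of the smaller cultured difference) in each of 28 libraries (columns, by group), as log2(CPM + 10) on a colour scale that ends at 12. Rows are bright in both cultured TIVA groups by choice and bright again in bulk hippocampus, while most are dark in tissue neurons, where member means had a median of 19.8 CPM by TIVA and 13.3 CPM by pipette.

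In hippocampal tissue, which played no part in the choice, the members were low in single neurons by either means of collection and high in bulk. The median over the 34 member means was 180.3 CPM in bulk hippocampus, 19.8 CPM in tissue TIVA neurons and 13.3 CPM in tissue pipette neurons. Over the 5011 features the medians were 75.8 CPM in bulk, 82.25 CPM in tissue TIVA and 65.8 CPM in tissue pipette neurons. Bulk had the highest of these 3 means for 30 members, tissue TIVA for 3 and tissue pipette for 1. The bulk median of the members lay beside the 119 CPM of cultured hippocampal TIVA and the 135 CPM of cultured cortical TIVA neurons, whose high values chose the members. Bulk means exceeded those of cultured hippocampal TIVA for 21 members and those of cultured cortical TIVA for 18. These orders of means were not counted over other features, so the counts describe the members alone. Cultured pipette neurons, whose low values also chose the members, had medians of 10.2 CPM in hippocampus and 27.1 CPM in cortex.

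Library by library the same division held. The median member stood at 95.5, 167 and 190 CPM in the 3 bulk libraries. It stood at 3.44, 8.67, 4.86, 39.0 and 2.26 CPM in the 5 hippocampal tissue TIVA neurons, and at 3.00, 14.5 and 8.33 CPM in the 3 tissue pipette neurons. No tissue neuron reached the lowest bulk library, and the fourth TIVA neuron was the highest of the 8. For comparison, the 5011 features whose means reached 20 CPM in both cultured TIVA groups were followed in the same libraries, a set defined after the data were seen. It includes the members and has lower medians than theirs in cultured TIVA neurons, at 61.3 CPM in cortex and 53.2 CPM in hippocampus. Their median was 58.1 to 84.4 CPM in bulk, 68.9 to 77.0 CPM in hippocampal tissue TIVA neurons and 50.0 to 59.6 CPM in tissue pipette neurons. For that set, then, the TIVA neurons lay within the range of the bulk libraries. Pipette neurons 1 and 2, at 51.7 and 50.0 CPM, lay below that range, and the third lay within it. For the members every hippocampal tissue neuron lay below the range of the bulk libraries.

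**Figure D2:**
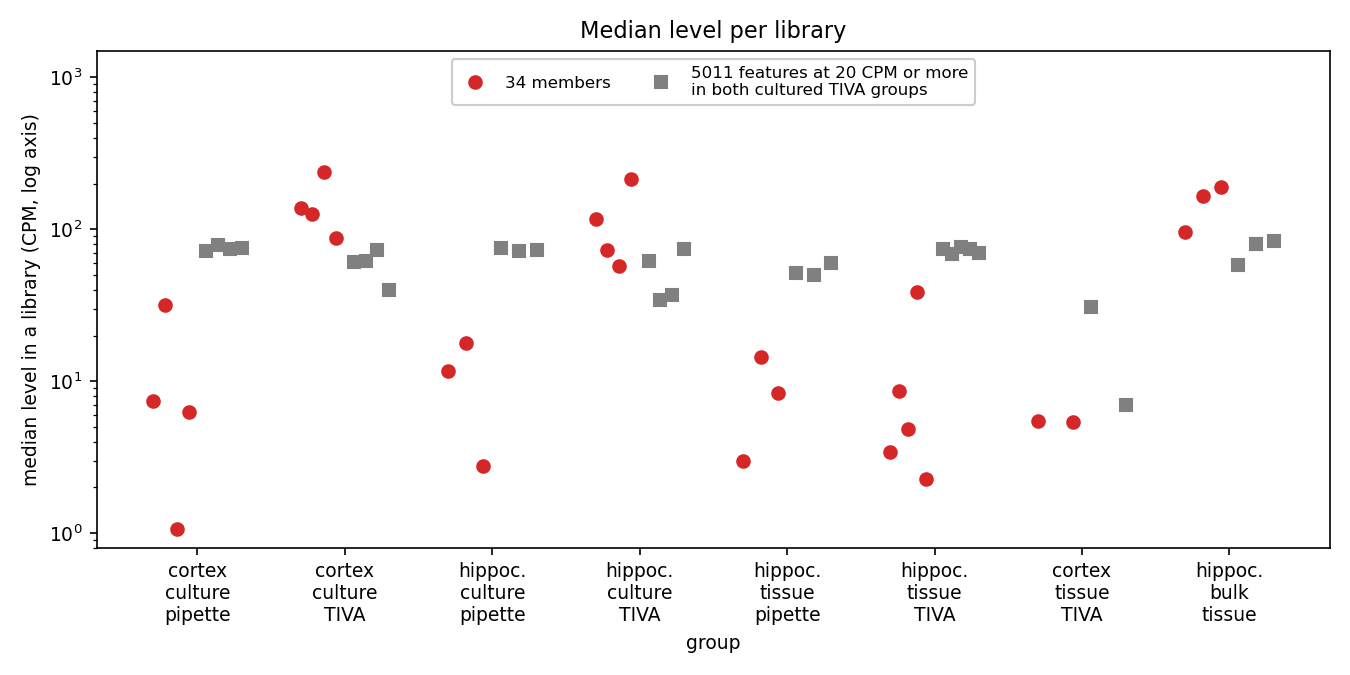
Median level in each library, in CPM on a log axis, of the 34 members (circles) and of the 5011 features that reach 20 CPM in both cultured TIVA groups (squares), by group. In hippocampal tissue neurons the member medians run from 2.26 to 39.0 CPM and in bulk from 95.5 to 190 CPM, while the squares of tissue TIVA neurons lie at 68.9 to 77.0 CPM.

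Tissue TIVA neurons were compared with bulk hippocampus. The median difference over the 34 members was −2.73 on the log2(CPM + 10) scale (from −4.98 to 1.88), against −0.28 over the 5011 features and 0.00 over all features. Of the 34 members, 31 were lower in the neurons by 1 or more and 1 was higher by as much. Among all features 6.86% were that much lower and 1.94% that much higher, and among the 5011 features 20.6% and 6.41%. For 20 members the neurons were lower by 1 or more and each of the 5 neurons lay below each bulk library, a pattern found for 3.31% of all features and 6.92% of the 5011. The reverse pattern was found for 0 members, 0.775% of all features and 3.05% of the 5011. A difference of −2 or beyond was reached by 22 members, 0.963% of all features and 3.89% of the 5011. One of −3 or beyond was reached by 14 members, 0.178% of all features and 0.698% of the 5011. Members 22 and 33 stood at 0.28 and 0.06, and member 29 at 1.88.

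Tissue pipette neurons gave nearly the same picture against bulk. Their median member difference was −3.13 (from −6.55 to 0.42), against −0.57 over the 5011 features and −0.01 over all features. By 1 or more, 29 members were lower and 0 were higher, where the shares were 10.9% and 2.08% among all features and 33.6% and 7.3% among the 5011. Each of the 3 neurons lay below each bulk library in 25 of these 29 members, against 7.85% of all features and 20.1% of the 5011, and the reverse held for 0 members, 1.15% of all features and 4.79% of the 5011. These comparisons share the bulk libraries, so their values are given side by side and not as separate support. For 19 members every bulk library lay above all 8 hippocampal tissue neurons, a pattern found for 15.6% of all features and 4.05% of the 5011.

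The TIVA minus pipette difference that defined the members in culture was near 0 at their median in hippocampal tissue, where both groups were low. The median over members was 0.08 (from −1.75 to 1.57), against 0.26 over the 5011 features and 0.00 over all features. Members were higher by TIVA in 20 cases and lower in 14. Signs were not counted over other features, so this split describes the members alone. The median of the 5011 features, at 0.26, also lay on the TIVA side. By 1 or more, 3 members were higher and 2 were lower, shares of 8.82% and 5.88%, beside 6.73% and 3.52% of all features and 22.3% and 10.9% of the 5011. With 1 CPM added in place of 10, which lets low members differ more, the median was 0.33, with 9 members higher and 4 lower, beside 14.3% and 7.44% of all features and 32.4% and 16.7% of the 5011. None of the 3 higher members had TIVA and pipette ranges apart, and 1 of the 2 lower members did, against 1.6% and 0.628% of all features and 5.53% and 2.16% of the 5011. The count of higher members was 1 without the fourth TIVA neuron, 6 without the second pipette neuron and 5 without TIVA neuron 1, 3 or 5 or pipette neuron 3, and the count of lower members was 4 without the first pipette neuron. Culture and tissue also differed in tag concentration, exposure time and laser setting, and their part in the result was not tested.

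**Figure D3:**
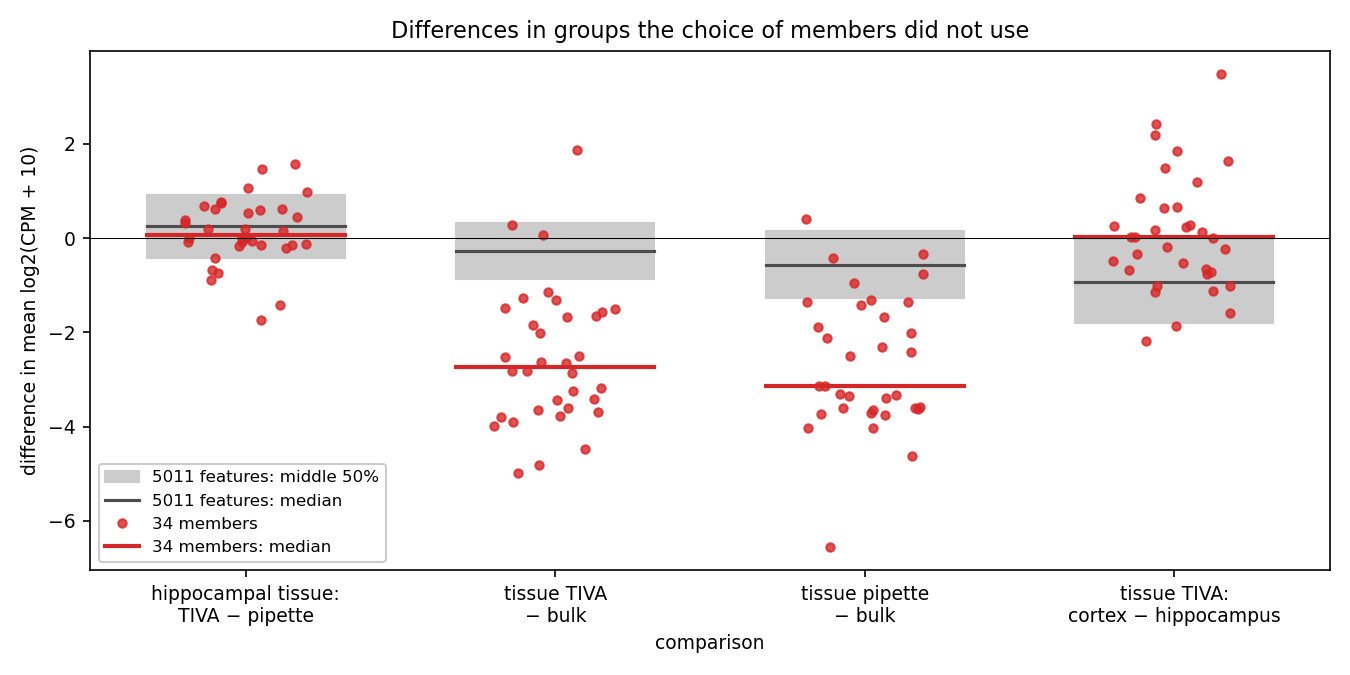
Difference in mean log2(CPM + 10) of each of the 34 members (points, thick line at their median) in 4 comparisons of tissue and bulk groups, with the median (thin line) and middle 50% (grey box) of the 5011 features that reach 20 CPM in both cultured TIVA groups. The members centre on −2.73 and −3.13 in the comparisons with bulk and on 0.08 and 0.02 in the other 2.

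The excess of bulk over tissue neurons grew with the cultured TIVA difference across the 5011 features, and the members are its upper end. Features were grouped by the smaller of their cultured TIVA minus pipette differences. Of the 1650 features below −1, 10.2% were lower in tissue TIVA neurons than in bulk by 1 or more. The share was 17.1% of 1238 features from −1 to −0.5, 24.4% of 1118 up to 0, 30.9% of 619 up to 0.5, 40.8% of 287 up to 1 and 61.5% of 65 up to 1.5. Among the members it was 78.6% of the 14 from 1.5 to 2 and 100% of the 20 at 2 or more. For tissue pipette neurons the shares in the same order were 20.5%, 28.4%, 40.8%, 51.2%, 51.9%, 66.2%, 71.4% and 95%. The TIVA minus pipette difference within tissue had no such order, with medians between −0.10 and 0.43 over these 8 groups. No library entered both the cultured differences and the tissue differences, although all features were chosen on their cultured TIVA level. Across the 5011 features, Pearson's r between the tissue TIVA minus bulk difference and the cultured TIVA minus pipette difference was −0.39 for hippocampus and −0.27 for cortex. Features are not independent replicates, and these correlations are descriptions.

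Single hippocampal tissue neurons held reads of fewer members than of the 5011 features, as shares of each. At a common depth of 5.30 M reads, reached by random thinning, 22, 27, 25, 29 and 24 of the 34 members had 1 or more reads in the 5 hippocampal tissue TIVA neurons. The 3 tissue pipette neurons held 21, 25 and 22 members, and the 2 cortical tissue neurons 24 and 27. All 34 were found in each bulk library. As shares these were 64.7% to 85.3% in TIVA neurons and 61.8% to 73.5% in pipette neurons, where 92.7% to 97.7% and 93.3% to 95.9% of the 5011 features were found. In the 2 cortical tissue neurons the shares were 70.6% and 79.4% of the members against 85.3% and 80.5% of the 5011 features, close together in the second neuron. Before thinning, 6 members had no read in any of the 3 tissue pipette neurons and 3 had none in either cortical tissue neuron. Such absence was not counted over other features. These libraries were also small, at 6.64 M to 11.6 M assigned reads by pipette and 5.30 M to 7.89 M in cortical tissue. Hippocampal tissue TIVA libraries held 24.1 M to 33.4 M. A count of 0 allows up to 0.258 to 0.452 CPM in the pipette neurons and 0.38 to 0.567 CPM in the cortical ones, for counting error only.

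Members that reached 50 CPM in 1 hippocampal tissue neuron were often below 1 CPM in another. Of the 21 members that reached 50 CPM in a hippocampal tissue TIVA neuron, 11 (52.4%) were below 1 CPM in another neuron of that group. The same was so for 5 of 14 members (35.7%) in tissue pipette neurons and for 2 of 14 (14.3%) in cortical tissue neurons. Among the 5011 features the matching shares were 23.6%, 13.7% and 19.8%, so in cortical tissue the member share was the lower one. In bulk 0 of 31 members did this. The groups hold 5, 3 and 2 neurons, and a larger group has more neurons that can fall below 1 CPM. Shares are therefore not compared between groups. In hippocampal tissue TIVA neurons the median of means was 19.8 CPM for the members and 82.25 CPM for the 5011 features. By pipette these medians were 13.3 and 65.8 CPM. The part of level in these shares was not tested. Member 21 stood at 282 CPM in the first tissue pipette neuron and had no read in the other 2. Member 4 stood at 324 CPM in the fourth tissue TIVA neuron and below 10 CPM in the other 4, and in bulk it held 83.5, 642 and 778 CPM. The fourth TIVA neuron held the highest value of its group for 14 members, more than any other of the 5. This was not counted over other features. The median of the 5011 features in that neuron was 73.9 CPM, within the group's 68.9 to 77.0 CPM.

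Members 5, 25, 29 and 33 were present at 50 CPM or more in every hippocampal tissue neuron. Member 25 stood between 698 and 1337 CPM in the 5 tissue TIVA neurons and between 774 and 1367 CPM in the 3 pipette neurons, and its bulk libraries held 4965, 2017 and 2104 CPM. Member 33 stood between 145 and 591 CPM by TIVA, between 163 and 255 CPM by pipette, and between 209 and 318 CPM in bulk, so that all 3 ranges overlapped. By their means, 5 members were at 50 CPM or more in both kinds of hippocampal tissue neuron and 10 were below 10 CPM in both.

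Identifiers are given for the members most apart between the tissue collections. By the rule used, uc007fct.1 and uc009uex.2:uc009uew.2 had the largest TIVA minus pipette differences in tissue, though with overlapping ranges. In the 5 hippocampal tissue TIVA neurons uc007fct.1 (member 2) stood at 11.6, 297, 229, 884 and 9.21 CPM, a mean of 286 (SD 358). The 3 tissue pipette neurons had 65.9, 24.7 and 16.4 CPM, a mean of 35.7 (SD 26.5). The TIVA neurons were split, with 3 above every pipette neuron and 2 below every one, and the log2 difference of 1.57 became 0.85 without the fourth TIVA neuron. Bulk libraries held 10252, 2792 and 1980 CPM, all above every hippocampal tissue neuron. The bulk mean of 5008 CPM was 17.5-fold the TIVA mean and 140.4-fold the pipette mean. Without the first bulk library the bulk mean was 2386 CPM, and without the fourth TIVA neuron the TIVA mean was 137 CPM. Without the first pipette neuron the pipette mean was 20.6 CPM. Summed over libraries its reads gave 277 CPM (95% exact Poisson interval 274 to 279.5) in tissue TIVA and 33.4 CPM (31.2 to 35.6) in tissue pipette neurons, intervals that cover counting error only.

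The member uc009uex.2:uc009uew.2 (member 29) went against the others, since it was higher in tissue neurons than in bulk. It stood at 1141, 1313, 1115, 2102 and 318 CPM in the tissue TIVA neurons (mean 1198, SD 635) and at 472, 370 and 281 CPM in the tissue pipette neurons (mean 374, SD 95.6). Bulk held 201, 231 and 428 CPM (mean 287, SD 123). The fifth TIVA neuron alone reached into the pipette and bulk ranges, and pipette and bulk overlapped. The log2 difference was 1.46 from pipette and 1.88 from bulk, and leaving out any library kept these within 1.20 to 1.88 and 1.62 to 2.29. Its summed reads gave 1181 CPM (1175 to 1186) by TIVA and 360 CPM (353 to 368) by pipette. In cultured TIVA neurons, which chose it, the means were 202 CPM in hippocampus and 180 CPM in cortex, below those of tissue TIVA neurons.

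Only uc012hdl.1 and uc012hdk.1 met the rule in the lower direction, with TIVA and pipette ranges apart. Both belong to the run of consecutive stems described above. Members 3 and 21 had more negative differences than uc012hdk.1, at −1.42 and −0.89, but their ranges overlapped. In tissue TIVA neurons uc012hdl.1 (member 1) stood at 23.0, 14.1, 27.4, 46.2 and 58.4 CPM (mean 33.8, SD 18.1), and in pipette neurons at 149, 192 and 70.3 CPM (mean 137, SD 61.8). Every pipette neuron lay above every TIVA neuron, by a log2 difference of −1.75 for TIVA minus pipette that stayed between −2.13 and −1.47 when a library was left out. Bulk held 807, 156 and 81.2 CPM, a mean of 348 that became 118 without the first bulk library, so that pipette and bulk ranges overlapped. The pipette minus bulk difference of −0.75 turned to 0.16 without that library.

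The level of uc012hdk.1 (member 12) was low in tissue TIVA neurons, at 2.14, 1.70, 4.16, 1.45 and 2.83 CPM (mean 2.46, SD 1.09). The tissue pipette neurons held 10.2, 12.3 and 9.88 CPM (mean 10.8, SD 1.34), all above the TIVA neurons. The log2 difference was −0.74, or −1.82 with 1 CPM added in place of 10. Bulk held 370, 250.5 and 206 CPM, and its mean of 275 CPM was 112-fold the TIVA mean and 25.5-fold the pipette mean. Summed reads gave 2.55 CPM (2.29 to 2.83) by TIVA and 10.6 CPM (9.39 to 11.9) by pipette. Member 3, the third of the consecutive run, ranged from 3.37 to 102 CPM by TIVA and from 84.6 to 148 CPM by pipette, with bulk at 1712, 880.2 and 1134 CPM, and TIVA neuron 4 overlapped the pipette range. For these 3 members the order of means in tissue, pipette above TIVA, was opposite to the order in culture that chose them.

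**Figure D4:**
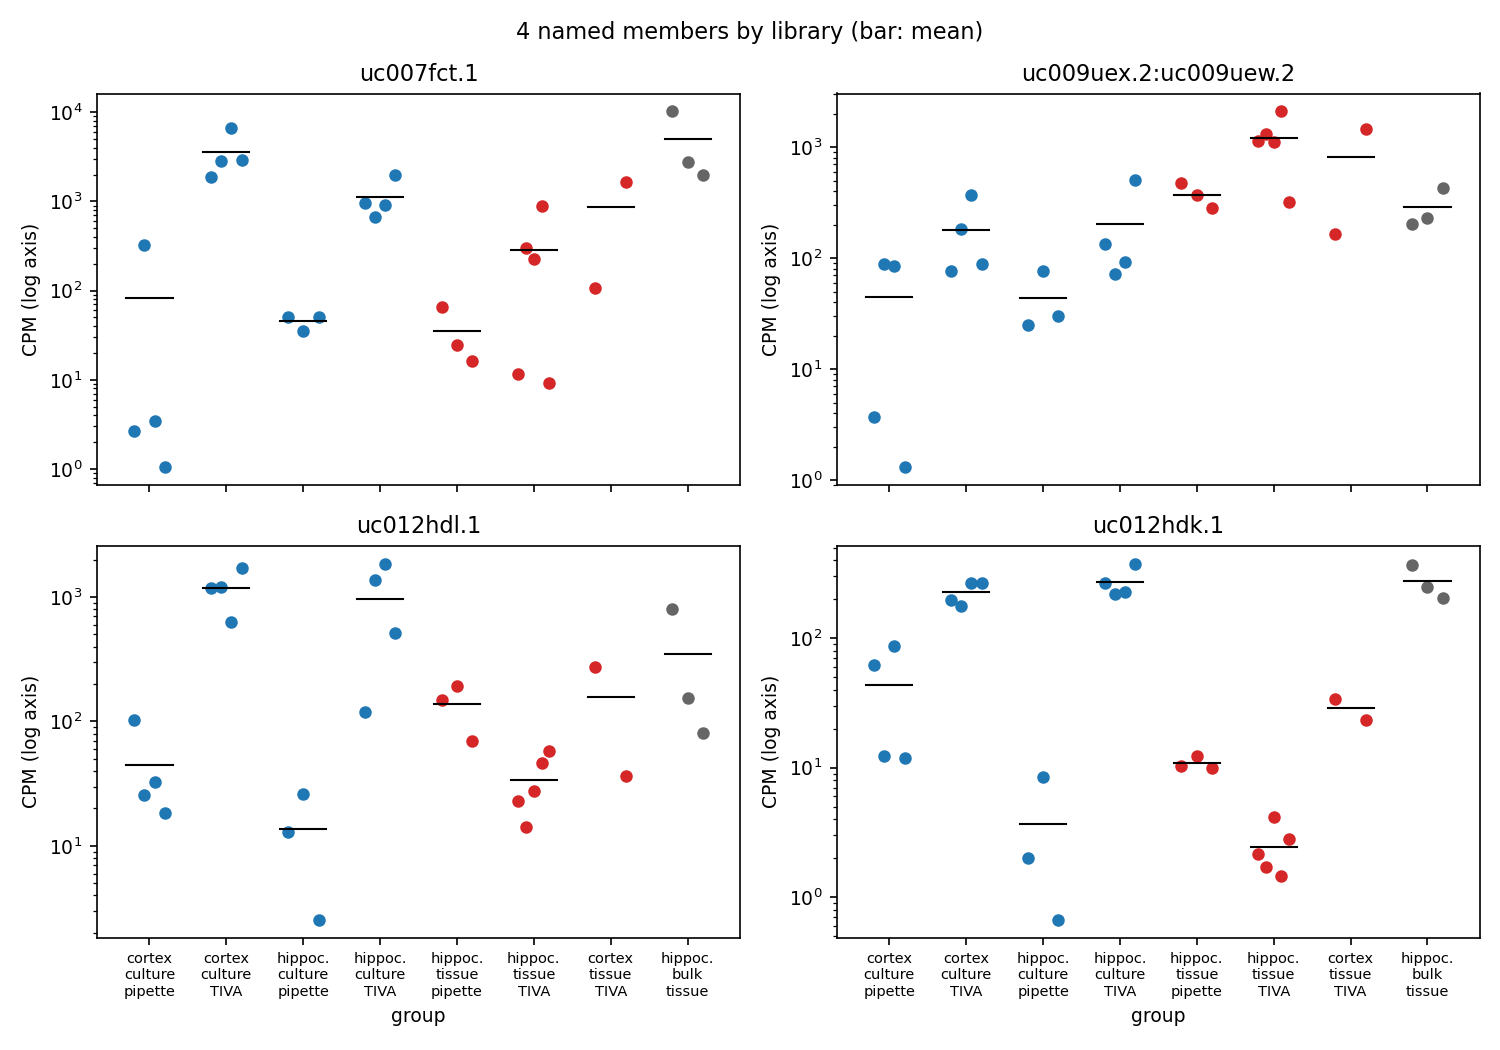
Level of 4 members in each library, in CPM on log axes that differ between panels, by group (points, bar at the mean, blue for culture, red for tissue neurons, grey for bulk). In hippocampal tissue uc012hdl.1 and uc012hdk.1 lie lower in all 5 TIVA neurons than in all 3 pipette neurons, and uc009uex.2:uc009uew.2 is higher in tissue TIVA neurons (mean 1198 CPM) than in bulk (mean 287 CPM).

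Member means over the 2 cortical tissue TIVA neurons were spread more widely than means over the 5 hippocampal ones. The middle 50% of member means ran from 0.110 to 166 CPM in cortex and from 6.40 to 66.3 CPM in hippocampus, and 14 members against 2 had a mean under 1 CPM. Means under 1 CPM were not counted over other features. Means under 10 CPM were found for 47.1% of members in cortex and 35.3% in hippocampus. Among the 5011 features these shares were 32.7% and 5.27%, so low means were more frequent in cortex for that set too. A mean over 5 neurons falls under 1 CPM less readily than a mean over 2. Group size and region therefore cannot be told apart in these values. Neuron by neuron, 15 and 16 members reached 10 CPM in cortex, against 13 to 19 in hippocampal TIVA neurons. The median member stood at 5.51 and 5.38 CPM, within the hippocampal TIVA range of 2.26 to 39.0 CPM. The cortex minus hippocampus difference had a median of 0.02 over the members (from −2.19 to 3.48), against −0.93 over the 5011 features and 0.00 over all features. By 1 or more, 7 members were higher and 7 were lower in cortex, 20.6% each way, beside 3.2% and 13.7% of all features and 8.6% and 48% of the 5011. Ranges were apart for 3 of the higher and 4 of the lower members, beside 0.813% and 6.47% of all features and 3.17% and 22.4% of the 5011. The count of lower members was 4 without the fourth hippocampal TIVA neuron. The median of the 5011 features was 30.7 and 6.99 CPM in the cortical neurons. A feature below 10 CPM in hippocampal neurons cannot be lower by 1 on this scale, which limits the count of lower members. With 1 CPM added, 8 members were higher and 12 lower in cortex, beside 5% and 23.5% of all features and 10.5% and 60% of the 5011. Members 1, 3 and 12 were higher in cortex by 1.49, 3.48 and 1.63. The value of uc007fct.1 was 107 and 1638 CPM, and that of uc009uex.2:uc009uew.2 was 166 and 1467 CPM, so each cortical mean rested on the second neuron. The cortex minus hippocampus difference of uc007fct.1 was 1.85. It was −0.06 without that neuron and 3.75 without the first cortical neuron. The difference of uc009uex.2:uc009uew.2 was −1.02. It was 0.51 without the first cortical neuron and −2.55 without the second. For uc012hdl.1 the levels were 276 and 36.4 CPM, and its difference of 1.49 was 0.18 without the first neuron and 2.81 without the second. For uc012hdk.1 they were 34.2 and 23.4 CPM.

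Summed, the members took a small part of each library. They held 1.34% to 2.49% of assigned reads in bulk, 0.287% to 0.708% in hippocampal tissue TIVA neurons, 0.248% to 0.317% in tissue pipette neurons and 0.397% and 0.577% in cortical tissue neurons. In culture, where they were chosen, they held 2.10% to 2.46% of cortical and 1.71% to 2.51% of hippocampal TIVA reads, and 0.239% to 0.566% and 0.248% to 0.426% of pipette reads. Leaving out member 2, the highest in bulk, gave medians of 1.28% in bulk and 0.350% in hippocampal tissue TIVA neurons, against 1.48% and 0.373% with it. Leaving out member 25, which has the highest group mean of any member, gave 1.27% in bulk, 0.270% in hippocampal tissue TIVA, 0.170% in tissue pipette, 1.31% in cultured hippocampal TIVA and 0.0814% in cultured hippocampal pipette neurons. With it the last 3 were 0.256%, 2.14% and 0.258%.

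Some other properties of the libraries moved with the members, with overlaps. The 8 left-out rows met the same limit in culture, so their rise from cultured pipette to cultured TIVA libraries follows from that rule. They took 13.4% to 60.4% of reads in cultured TIVA libraries, 4.85% to 23.3% in bulk, 0.0736% to 5.02% in cultured pipette neurons and 0.280% to 5.79% in tissue neurons. Reads set aside as ambiguous made up 2.94% to 10.9% of counted reads in cultured TIVA libraries and 4.68% to 8.88% in bulk, against 0.589% to 2.02% in cultured pipette neurons and 1.87% to 3.82% in tissue neurons. The part of these reads in the results was not tested. Reads outside features made up 43.4% to 67.5% in cultured cortical TIVA, 19.9% to 38.4% in cultured hippocampal TIVA, 31.5% to 81.1% in cultured pipette neurons, 15.8% to 39.2% in tissue neurons and 21.1% to 30.5% in bulk. Assigned reads ranged from 5.30 M to 59.0 M, with bulk at 26.7 M to 59.0 M and hippocampal tissue TIVA at 24.1 M to 33.4 M. The last 2 quantities overlapped between bulk and hippocampal tissue TIVA neurons.

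**Figure D5:**
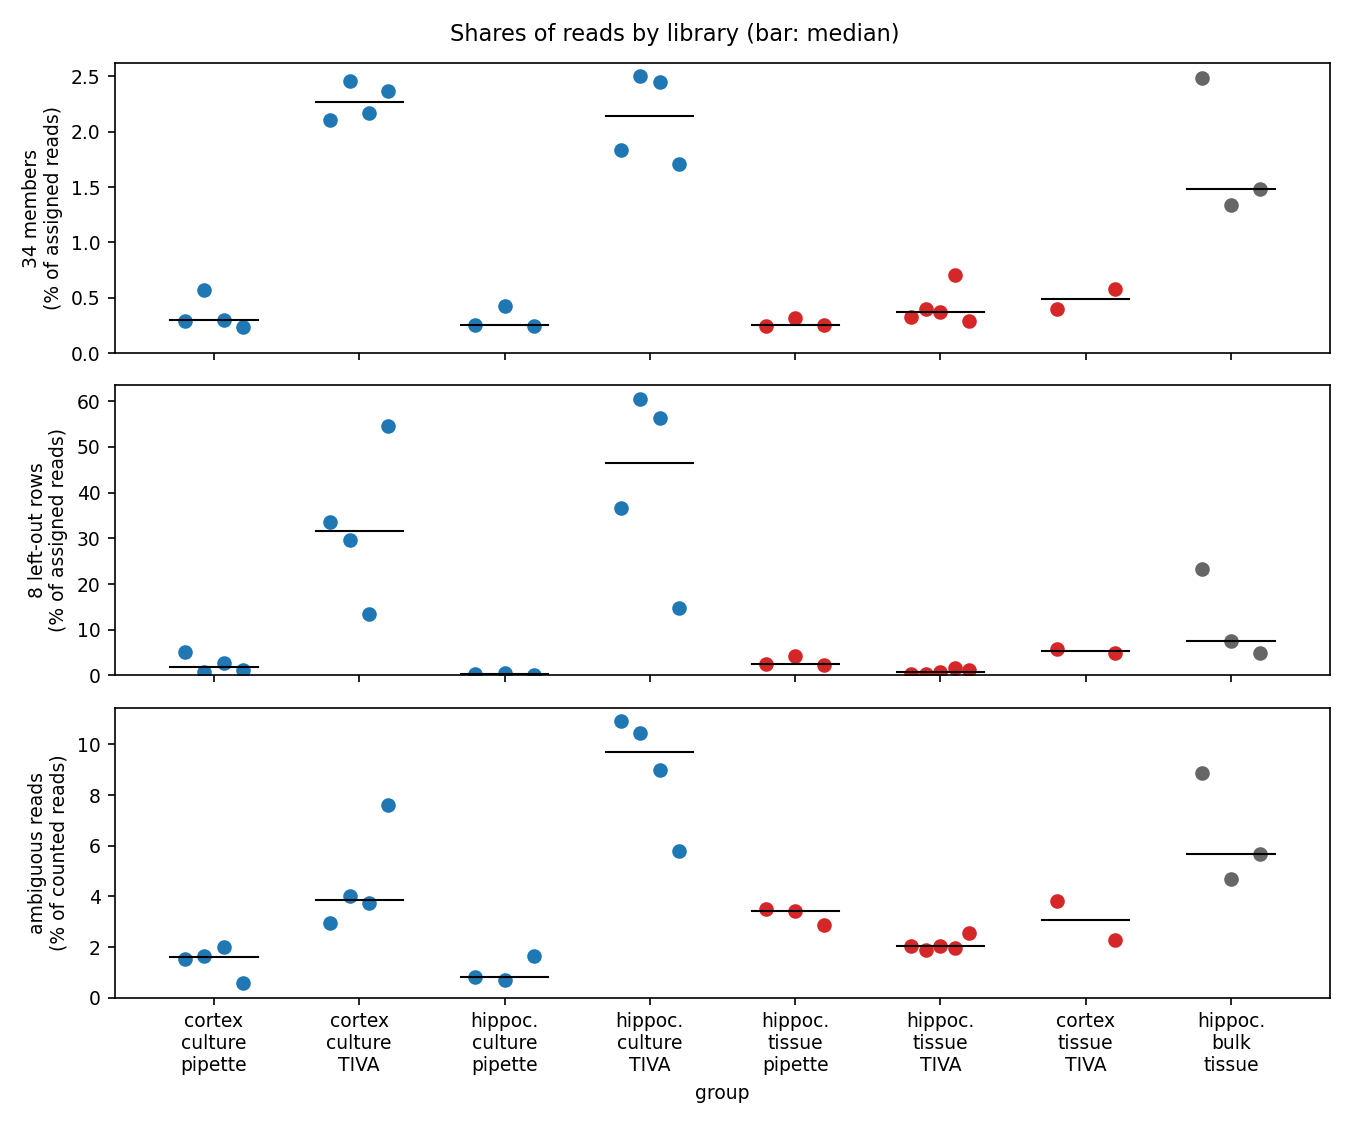
Share of assigned reads held by the 34 members (top) and by the 8 left-out rows (middle), and share of counted reads set aside as ambiguous (bottom), in percent, for each library by group (points, bar at the median). In the top panel cultured TIVA and bulk libraries lie at 1.34% or more and all other libraries at 0.708% or less, while in the lower 2 panels these sets overlap.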

How the data were processed

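The authors deposited whole-number read counts per feature, 1 table per library. Per the submitters' processing notes, CASAVA 1.8.1, HTSeq and build mm9 were used, and the aligner, overlap mode and strand setting were not given in the sources used here. The 5 HTSeq summary lines belong to no gene and did not enter library sizes. CPM was computed from the deposited counts over the remaining 28661 features. Libraries were grouped by source name. Replicates were numbered in record order. The lowest chi-square per degree of freedom between libraries of a group was 37.6, so none was merged.

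The members and lists were chosen with earlier results of these data known. Identifiers were printed for up to 2 members in each direction of the tissue TIVA minus pipette difference, among members averaging 20 CPM in bulk and with at least 10 reads in each library of whichever group was higher. Ranges had to be apart, and where no member met that, the condition was dropped. Only the lower direction met it, with 2 members. No fit was made, so edgeR 4.0.16 (TMM) and DESeq2 1.42.0 served for alternative scalings alone. Thinning used a fixed seed. Python 3.11.15 was used. A difference of 1 or more in mean log2(CPM + 10) was counted.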

Additional observations from a re-analysis of the deposited data

Results flagged for a closer look

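Of 26 sets of 4 or 5 libraries examined for a library far from the rest, 5 held one by Dixon's ratio of gap to range. For normally distributed values about 1 in 20 sets would pass its limit. That rate need not hold for the untransformed CPM and shares of single cells used here. All 5 were the highest value of their set, and some of the sets share libraries. In the fourth hippocampal tissue TIVA neuron the members held 0.708% of reads and had a median of 39.0 CPM, both far above the other 4 neurons. The second cultured cortical pipette neuron held 326 CPM of uc007fct.1, and without it the group mean of 83.4 CPM was 2.39 CPM. The first neuron of that group held 102 CPM of uc012hdl.1. The fourth cultured hippocampal TIVA neuron held 510 CPM of uc009uex.2:uc009uew.2, and without it the group mean of 202 CPM was 99.4 CPM. In hippocampal tissue, TIVA minus pipette was −1.75 for uc012hdl.1 and −0.74 for uc012hdk.1, with every TIVA neuron below every pipette neuron, while in cultured hippocampus every TIVA library lay above every pipette library. The difference between tissue and culture was not tested, and the cultured direction chose these members.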

How the results depend on the processing

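Which features became members depended on scaling. The count of 34 became 289 with 1 CPM added in place of 10, 66 with TMM, 111 with DESeq2 size factors, 174 with CPM outside the 50 most abundant features of each library and 152 with CPM outside the 8 left-out rows. The 34 were kept under each of these but TMM, which kept 33. The count was 111 with a limit of 1, 20 with a limit of 2 and 21 where cultured ranges also had to be apart. For the fixed 34, the comparisons with bulk kept their direction under every alternative run. With 1 CPM added, medians were −4.35 for TIVA and −4.30 for pipette, 9 members were higher and 4 lower by TIVA than by pipette in tissue, and 12 were lower in cortex. Summed counts gave 7 higher and 4 lower by TIVA in tissue. DESeq2 size factors gave 12 higher and 4 lower in cortex. With the 111 features at the limit of 1, the medians against bulk were −1.59 and −1.68, with 79 and 78 lower and 6 and 2 higher, 14 higher and 6 lower by TIVA in tissue, and 18 higher and 30 lower in cortex. With the 20 at the limit of 2, 20 and 19 were lower than bulk, 0 were higher in TIVA neurons than in bulk, 1 was higher by TIVA in tissue and 1 lower in cortex. Those 20 held medians of 0.0951%, 0.0936% and 0.274% of reads in hippocampal TIVA, pipette and cortical tissue neurons. Outside the 50 most abundant features the members held 0.338% in tissue pipette and 0.721% in cortical tissue neurons. At 10 CPM or more a median of 13 members was found in hippocampal TIVA and 15.5 in cortical tissue neurons. Leaving out a library gave 1 to 6 members higher and 2 to 4 lower by TIVA in tissue, and 4 to 10 lower in cortex. Against bulk it gave 29 to 31 lower for TIVA and 28 to 30 for pipette. Over features reaching 20 CPM in any group, the median TIVA minus bulk difference was −0.26, and −0.08 with TMM, and the median pipette minus bulk difference was −0.50, and −0.25 with DESeq2 size factors. Where values moved, the cause was not tested. No paired analysis was possible because the replicate numbers only follow the order of the records, and no test between groups was run. The depth of 5.30 M reads in the smallest library limits detection of low members.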
